A study of Mus musculus with 27 samples.

Results

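Broad H3K4me3 domains are stretches of chromatin several kilobases long in which histone H3 carries 3 methyl groups on lysine 4. Here a broad domain was an autosomal region in which every one of 5 H3K4me3 libraries had a joined peak of 3 kb or more, after peaks less than 500 bp apart in a library had been joined. Of 28910 autosomal regions with H3K4me3 in at least 1 library, 819 (2.83%) met this rule, and they covered 4.34 of 38.5 Mb (11.3%). Peak widths chose the domains, so widths and peak heights are given as a description with no test. The width of a domain in a library is the added length of its joined peaks of 3 kb or more, so shorter ones are left out. For the order of the groups, and over all shared regions, all joined peaks were added. For single regions below the threshold the widest joined peak is given. Transcript levels, DNA methylation and H3K4me1 took no part in the choice.

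The cells came from the VavP-Bcl2 mouse, in which the Vav promoter drives Bcl2, an inhibitor of apoptosis, in blood cells, so the controls carry that transgene as well. As the RNA-seq and ChIP-seq labels describe it, haematopoietic stem cells of E13.5 fetal liver were infected with an empty retroviral vector or with MSCV-SHMT2, and wild-type mice that had been irradiated received them. The B220+ fraction of the spleen was studied, B220 being the long CD45 form found on B cells. The RNA protocol calls the source tumours. For the bisulfite samples the labels name only the B220+ cells, the model and the vector. H3K4me3 was profiled in 2 vector and 3 SHMT2 libraries, H3K4me1 in 2 and 2, RNA in 3 and 3, and DNA methylation in 3 and 3. SHMT2 is the mitochondrial serine hydroxymethyltransferase, a source of 1-carbon units. For SHMT2 replicates 2 and 3 of the methylation set, a transfection label says SHMT3 and SHMT4 where the title says SHMT2, and the title was used. Whether the replicates of a group are different mice is not stated, so p-values measure only how far these libraries spread, and that spread may be technical.

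H3K4me3 marks the starts of active genes and is deposited by the SET1 and MLL methyltransferases, which CpG islands help to recruit. At most active genes it spans a few nucleosomes just after the start. At a small share of genes it reaches much further into the gene body, and such domains are known to lie over genes that set the identity of a cell type. The promoter windows of 5 transcription factors of the B lineage are shown here because their domains are among the widest of that class, and that of H2-Eb1 because it holds no CpG. H2-Eb1 was picked after its values were seen. Each window runs from 250 bases before to 50 bases after an annotated start (RefSeq, GRCm38.p6, the build also called mm10), 5′ to 3′ on the gene's strand, with every CpG in capitals. Pax5 holds B cell identity, Bcl11a and Irf8 act in early B cell development, Mef2c and Spib in signalling and germinal centre responses, and H2-Eb1 encodes a chain of MHC class II.
Pax5, chr4:44710645-44710944, minus strand: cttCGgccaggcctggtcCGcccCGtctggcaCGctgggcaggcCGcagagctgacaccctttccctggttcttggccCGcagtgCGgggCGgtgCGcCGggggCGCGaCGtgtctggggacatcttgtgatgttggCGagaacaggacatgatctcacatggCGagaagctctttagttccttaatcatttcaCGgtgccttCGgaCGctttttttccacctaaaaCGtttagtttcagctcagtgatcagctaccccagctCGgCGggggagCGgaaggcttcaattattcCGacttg
Bcl11a, chr11:24080445-24080744, plus strand: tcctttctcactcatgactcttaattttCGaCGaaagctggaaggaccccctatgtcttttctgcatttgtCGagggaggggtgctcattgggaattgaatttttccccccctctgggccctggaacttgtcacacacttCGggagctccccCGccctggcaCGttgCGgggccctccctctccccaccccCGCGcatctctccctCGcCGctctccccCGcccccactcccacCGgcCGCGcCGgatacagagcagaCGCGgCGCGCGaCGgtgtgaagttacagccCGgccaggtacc
Irf8, chr8:120736108-120736407, plus strand: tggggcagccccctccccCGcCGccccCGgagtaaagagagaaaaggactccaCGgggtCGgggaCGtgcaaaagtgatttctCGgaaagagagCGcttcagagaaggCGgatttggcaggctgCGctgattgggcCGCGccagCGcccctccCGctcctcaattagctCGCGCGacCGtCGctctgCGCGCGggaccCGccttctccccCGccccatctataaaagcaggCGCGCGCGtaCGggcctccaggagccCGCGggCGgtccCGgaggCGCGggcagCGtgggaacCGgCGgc
Mef2c, chr13:83523406-83523705, plus strand: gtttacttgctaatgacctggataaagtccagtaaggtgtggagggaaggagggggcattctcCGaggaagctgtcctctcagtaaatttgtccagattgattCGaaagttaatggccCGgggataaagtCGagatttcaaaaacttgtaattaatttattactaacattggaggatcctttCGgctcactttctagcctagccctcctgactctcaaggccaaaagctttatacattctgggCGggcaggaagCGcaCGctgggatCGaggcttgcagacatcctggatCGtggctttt
Spib, chr7:44532022-44532321, minus strand: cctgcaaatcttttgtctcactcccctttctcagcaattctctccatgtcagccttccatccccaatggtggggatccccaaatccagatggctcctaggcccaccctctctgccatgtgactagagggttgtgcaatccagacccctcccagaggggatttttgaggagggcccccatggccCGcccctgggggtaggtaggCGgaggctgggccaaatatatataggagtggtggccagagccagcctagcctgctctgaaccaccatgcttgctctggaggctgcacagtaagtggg
H2-Eb1, chr17:34305617-34305916, plus strand: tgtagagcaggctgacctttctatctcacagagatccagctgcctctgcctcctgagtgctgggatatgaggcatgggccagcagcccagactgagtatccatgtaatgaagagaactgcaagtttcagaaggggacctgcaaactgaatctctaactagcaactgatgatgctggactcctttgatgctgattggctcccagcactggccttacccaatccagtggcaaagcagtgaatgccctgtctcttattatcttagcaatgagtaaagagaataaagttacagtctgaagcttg
The Irf8 window holds 38 CpG (the window of a second Irf8 start in the domain, chr8:120738389-120738688, holds 8), those of Pax5 and Bcl11a 23 each, Mef2c 10, Spib 2 and H2-Eb1 0. All 6 lie in domains with a median width of 6317 bp (H2-Eb1) to 15015 bp (Pax5), so a domain of this size was found over CpG-dense and CpG-free windows alike.

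A microRNA gene lay in 13 domains, 15 genes in all, and their 24 mature forms in the RefSeq table had 24 different seeds. The mature forms below are from the microRNA genes in the 2 widest of these domains and from Mir150, all known for roles in blood cells. They were chosen after the widths were seen. For Mir150 the RefSeq table holds only the form miR-150-3p, so the known roles are those of the gene and are not assigned to that form. Letters run 5′ to 3′ and capitals mark the seed, bases 2 to 8.
miR-142a-3p, chr11:87756903-87756925, plus strand: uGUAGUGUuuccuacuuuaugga
miR-142a-5p, chr11:87756867-87756887, plus strand: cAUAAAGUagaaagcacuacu
miR-21a-5p, chr11:86584120-86584141, minus strand: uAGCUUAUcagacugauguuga
miR-150-3p, chr7:45121798-45121819, plus strand: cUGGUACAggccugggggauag
The Mir142 domain, which also holds a start of Tspoap1, measured 10181 and 13097 bp in the vector libraries and 13051, 12053 and 10272 bp in the SHMT2 libraries. The Mir21a domain, inside the span of Vmp1, measured 9445 and 8745 bp against 10527, 9962 and 9175 bp. The Mir150 domain was narrower, at 3665 and 3983 bp against 5613, 3830 and 3741 bp. SHMT2 replicate 4 was the widest of the 5 libraries at the Mir21a and Mir150 domains. No small RNA was measured, so the levels of these microRNAs were not analysed here.

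Widths were similar between libraries. The median domain width was 3909 bp in vector replicate 4, 4143 bp in vector replicate 6, and 4413, 4264 and 4071 bp in SHMT2 replicates 4, 5 and 6. The ratio of the widest to the narrowest library had a median of 1.15 over the 819 domains and passed 2 in 19 of them. Between pairs of libraries the rank correlation of width across domains was 0.81 to 0.89 (Spearman, 819 domains chosen on these widths). SHMT2 replicate 4 gave the widest value in 445 domains and vector replicate 4 the narrowest in 410. The same 2 libraries were the extremes over all regions shared by the 5 libraries, with a median of 1445 bp in SHMT2 replicate 4 and 1159 bp in vector replicate 4. By the added width of all joined peaks, all 3 SHMT2 libraries were wider than both vector libraries in 207 of 819 domains (25.3%). Over all 18846 shared regions the share was 31.4%. The reverse order held in 13 domains (1.59%), beside 1.33% of shared regions. Both shares in the broad domains are near or under the background. The strongest peak in a domain had a median fold enrichment, the authors' own value for a peak, of 33.6 and 41.4 in the vector lists and 47.1, 39.2 and 39.1 in the SHMT2 lists. Over all peaks of those lists it was 11.0 to 12.8. The lists held 33313 to 38249 peaks, with the largest number in SHMT2 replicate 4, and whether peak number moved the widths was not tested.

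By median width 453 domains reached 4 kb, 116 reached 6 kb and 10 reached 10 kb. The widest stretch lay over the 5S ribosomal RNA gene cluster on chromosome 8 (chr8:123537357-123624502), a repeat array with 48 annotated 5S genes, at 85957 and 86369 bp in the vector libraries and 87004, 87092 and 24301 bp in the SHMT2 libraries. SHMT2 replicate 6 stood apart there. In repeats of this kind reads cannot be placed on 1 copy, so this width is uncertain. Next came Pax5 (chr4:44699461-44714812), at 13443 and 15015 bp in vector and 15211, 14995 and 15191 bp in SHMT2. The domain over Tspoap1 and Mir142 followed, then Stk17b, an apoptosis-linked kinase, at 11876 and 11673 bp against 13429, 11944 and 12200 bp. The immunoglobulin lambda locus (chr16:19230966-19243306) had a median of 11846 bp and the heavy chain locus, over Ighm and the joining segments, one of 9739 bp. Nfatc1, a calcium-regulated factor of antigen receptor signalling, had a median of 11080 bp. A domain inside Coro2a with no annotated coding start measured 10718 bp in vector replicate 4 and 5121 bp in vector replicate 6. Shisa5 with Trex1 had a median of 10546 bp, Slc25a11 with Rnf167 and Pfn1 one of 10408 bp, Bcl11a 10342 bp and Man1a, a Golgi mannosidase, 9818 bp.

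At the threshold, the widest joined peak of each library was read, and the smallest of these 5 values taken. It was 3000 bp at Plcl2, 3000 bp at Dll4 and 3003 bp at Grk6, just inside. It was 2998 bp at Rev3l, 2994 bp at Mia2 and 2994 bp at Tmem123, just outside. Other regions had a joined peak of 3 kb in some libraries only, with 418 regions broad in 1 library, 207 in 2, 163 in 3 and 212 in 4. The domains with the largest ratio of widths, after the 5S cluster, were those inside Mef2d and at Id2, Kif21b, Mef2b and Slc15a4. Id2, an inhibitor of E proteins, measured 3496 bp in vector replicate 4 and 7155 to 8944 bp in the other 4 libraries. Mef2b, a factor of germinal centre B cells, measured 3396 bp in vector replicate 4 and 6119 to 8375 bp elsewhere. Vector replicate 4 was the lowest library at Id2, Kif21b and Mef2b. A low width can leave out shorter joined peaks of the same domain, and this was not tested here. At Slc15a4, a lysosomal peptide transporter, SHMT2 replicate 4 stood alone at 8329 bp beside 3534 to 3814 bp.

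The 800 protein-coding genes at the domains, 3.87% of 20665 autosomal ones, were found by an annotated start in the domain (660 genes) or, where no start is listed, by an end of the gene's span (140 genes). A single such gene lay in 580 domains, 104 held 2, 6 held 3, and 129 held none. Of these 129, 11 contained the 5′ end of a gene span whose listed start lies elsewhere, Prdm1 among them, and 12 began or ended within 1 kb of a listed start. Foxo1 is of that kind, named after its values were seen: its start lies 871 bp before a domain with a median of 3576 bp, in a gap between peaks. Runx3 lies 375 bp and Mef2d 452 bp from such a domain. Genes of this kind with no other start in a domain are missing from the count of 800. Prdm1 is in it through a second domain. Among domains with 1 annotated start, the mark reached a median of 1160 bp upstream and 3425.5 bp downstream, and further downstream than upstream in 346 of 394 (87.8%). Narrow regions, meaning those in all 5 libraries with no joined peak of 3 kb in any, reached 644 bp upstream and 1069 bp downstream. They reached further downstream than upstream in 83.6% of 5343 regions with 1 annotated start, a share near that of the broad domains. The greater width of the broad domains thus lay on both sides of the start, with the larger part in the gene body.

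Of the non-coding genes, 150 long non-coding RNA genes lay in 143 domains and 35 transfer RNA genes in 12. Histone genes made up 5 of the 6 domains with 3 coding genes. In all, 16 of 67 histone genes, picked by symbol and most of them replication-dependent, lay in 6 broad domains. Their median was only 0.108 TPM over the 15 that have a value. Transcripts of replication-dependent histone genes lack poly(A) tails and the copies are nearly identical, so these TPM values are uncertain. The histone genes were singled out after the domains were seen.

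The lists of B lineage factors and B cell surface molecules had the largest shares of their genes at broad domains. Of 30 transcription factors of the B lineage on a list, 21 (70%) lay at a broad domain, and of 30 B cell surface molecules 19 (63.3%) did. These lists, like the others, were drawn up with earlier results of these data known, so their counts are descriptions. The other lists with a large share were immediate early and AP-1 genes (15 of 26), MHC class II and antigen presentation (11 of 20), BCL2 family regulators (6 of 15) and plasma cell markers (4 of 10). So was the list named lymphoma tumour suppressors (18 of 37), a loose name, as it also holds other lymphoma genes such as Bcl6 and Ccnd3. B cell receptor signalling had 6 of 24 and NF-kB subunits and feedback genes 4 of 17. Housekeeping lists had none: 0 of 30 cytosolic ribosomal protein genes and 0 of 29 respiratory chain genes lay at a broad domain, while 29 and 28 of them lay at narrow regions. Of the markers of other cells, 0 of 22 myeloid and 0 of 17 erythroid genes lay at a broad domain. The T cell list had 1 of 20 (Gata3) and the natural killer list 1 of 11 (Tbx21). Over all protein-coding genes the share was 3.87%, below the 5% of T cell and 9.09% of natural killer markers. These lists and the housekeeping lists are too short to show a share under 3.87%. Ptprc, which encodes B220, had a domain of 5132 and 5264 bp in vector and 5563, 5206 and 5321 bp in SHMT2.

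**Figure D1:**
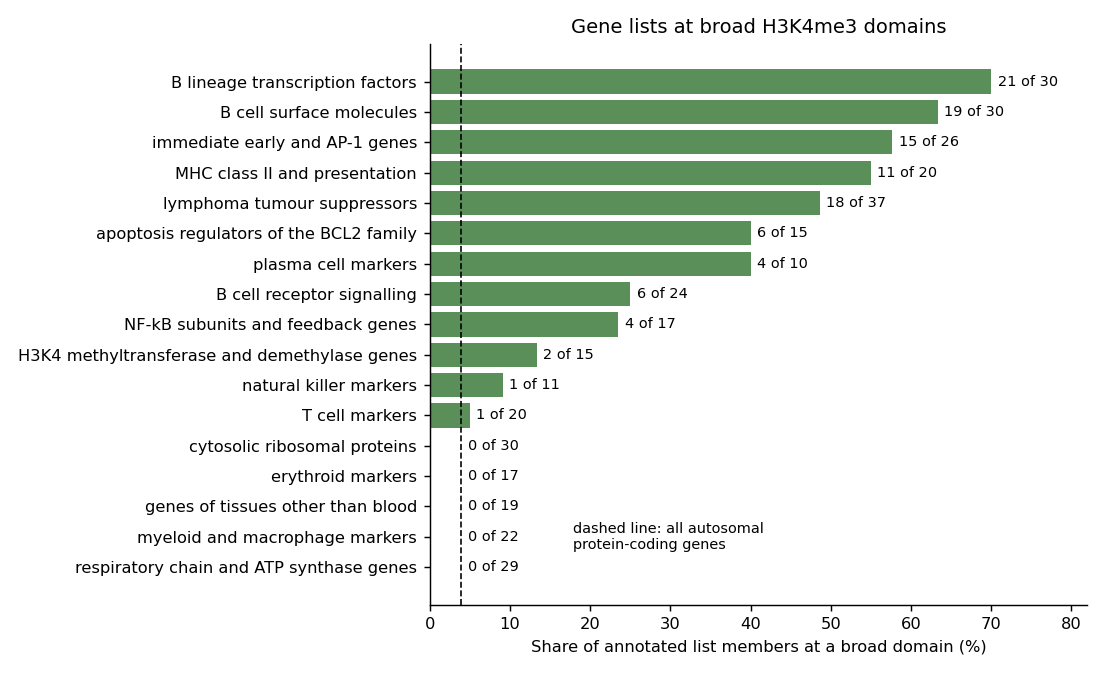
Horizontal bars give the share (percent) of the annotated autosomal members of each of 17 gene lists whose start or span end lies in a broad H3K4me3 domain, with the count beside each bar, and the dashed line is the 3.87% of all protein-coding genes. The B lineage factors (70%) and B cell surface molecules (63.3%) have the longest bars, and ribosomal protein, respiratory chain, erythroid, myeloid and non-blood genes have none.

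Among the B lineage factors, Pax5, Nfatc1, Bcl11a, Irf8, Mef2c and Spib had the widest domains. Irf8 measured 9197 and 9153 bp in vector and 9329, 10545 and 9318 bp in SHMT2. Mef2c measured 8107 and 9252 bp against 9705, 9661 and 9311 bp. Every SHMT2 library was above both vector libraries at these 2 genes, while at Spib, with 7098 and 7866 bp against 7471, 7357 and 7191 bp, the groups overlapped. By the added width of all joined peaks, SHMT2 was wider in this way in 5 of the 21 factors and narrower in none. Over all shared regions the shares were 31.4% and 1.33%, so the factors do not stand apart in this order. Over the list the median width was 6280 bp, beside 4146 bp over all domains, and 18 of 21 lay above the latter. The others, from wide to narrow by each gene's widest domain, were Mef2b, Ikzf1, Ikzf3, Pou2af1, Ebf1, Bcl6, Klf2, Fli1, Elf1, Tcf3, Irf4, Pou2f2, Foxp1, Lef1 and Myb, the last with a median of 3654 bp. Foxp1 lay at 3 domains, with medians of 4008, 3797 and 3654 bp. Listed factors below the threshold included Runx1 (2195 to 2271 bp) and Id3 (2199 to 2499 bp). At Ets1 the region read had peaks of 199 to 477 bp. These widths are from a single region per gene, so a peak elsewhere in the gene would not show.

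Among surface molecules the B cell receptor chain Cd79a, whose domain also covers Arhgef1, was the widest, at 8801 and 8780 bp in vector and 9406, 9080 and 9512 bp in SHMT2. Cd180, Cd22, Ms4a1 (CD20), Cd79b, S1pr1, Fcmr, Cd38, Cd37, Cd53, Cd74 and Cxcr5 followed with medians of 7928 to 5528 bp, and Cd24a, Cxcr4, Cd83, Fcrla, Ly86, Cd55 and Cd40 with 4855 to 3160 bp. Birc3, an NF-kB target, had 3 kb in 4 of 5 libraries, and Rela (2129 to 2481 bp) and Relb (1898 to 2119 bp) in none. Tnfaip3, the NF-kB inhibitor A20, measured 3413 and 6922 bp in vector and 7132, 6961 and 6833 bp in SHMT2. Vector replicate 4 was lowest there, and vector replicate 6 lay within the SHMT2 range. Rel, Nfkbia and Nfkbie had medians of 4168, 4479 and 4001 bp. Among enzymes that write or erase H3K4 methylation, the methyltransferase genes Setd1b (5507 to 8297 bp) and Kmt2d (3575 to 4043 bp) were broad, and 13 of 15 were not.

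**Figure D2:**
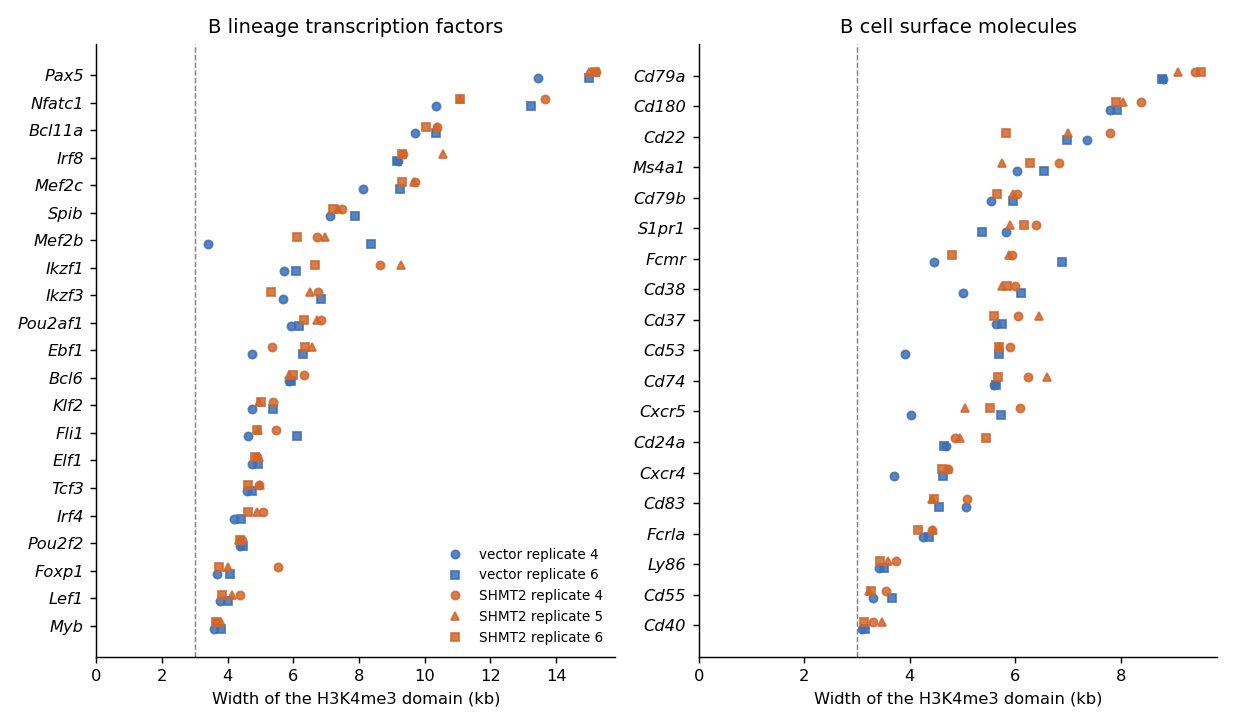
Points give the width in kb of the H3K4me3 domain in each of the 5 libraries at the B lineage transcription factor genes (left) and the B cell surface genes (right) that lie at a broad domain, blue for vector and orange for SHMT2, with the 3 kb threshold dashed. Pax5 reaches 15015 bp by its median, most genes have their 5 points close together, and Mef2b is a case where vector replicate 4 (3396 bp) lies far below the rest.

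Genes at broad domains had high transcript levels. The median over the 842 genes with a value was 48.8, 49.4 and 49.1 TPM (a transcript level scaled by gene length and library total) in vector and 48.5, 48.2 and 48.5 TPM in SHMT2. At narrow regions it was 11.4 to 12.3 TPM over 9201 genes. All 6 libraries showed this order. For coding genes alone at their region, the medians were 72.6 to 78.6 TPM (573 genes) and 12.5 to 13.6 TPM (7071 genes). A TPM of at least 100 was reached by 33.4% to 34.0% of genes at broad domains and by 8.65% to 9.05% at narrow ones. The level climbed with width over the whole range: genes alone at regions under 500 bp had a median of 0.370 TPM, those at 1000 to 1500 bp 9.31 TPM, those at 1500 to 2000 bp 17.8 TPM, those at 2000 to 3000 bp 32.9 TPM, those at 3000 to 4000 bp 54.8 TPM, and those at 6000 bp or more 156 TPM. Within the broad domains the rank correlation of width with TPM was 0.215 to 0.241 (Spearman, 573 genes, per library), and over all shared regions 0.444 to 0.452 (8228 genes). The RNA-seq depth is unknown, since TPM keep none.

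**Figure D3:**
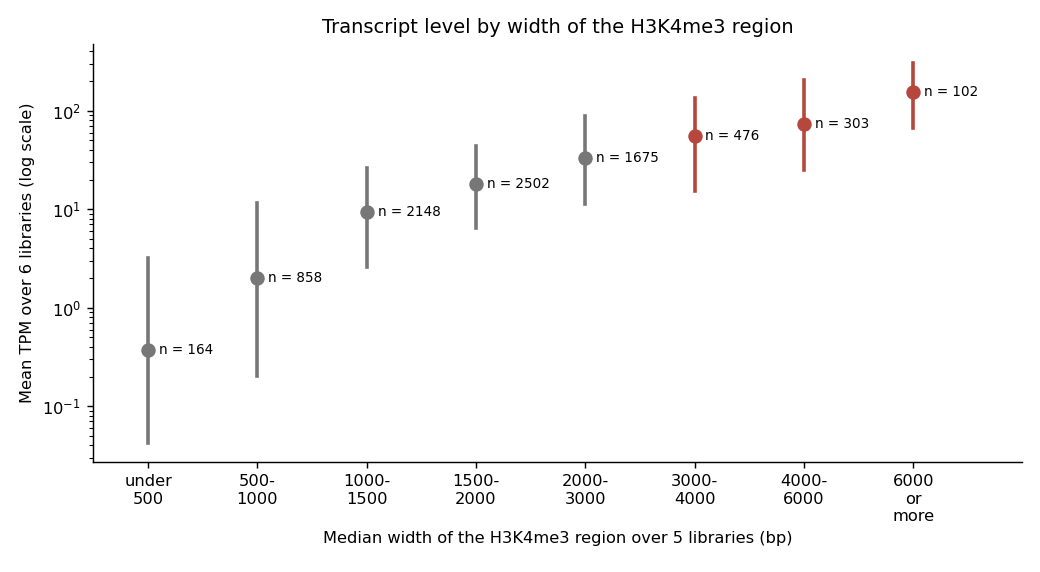
Points are the median, and bars the quartiles, of the mean TPM over 6 libraries (log axis) for protein-coding genes alone at an H3K4me3 region found in all 5 libraries, by the region's median width in bp, with the number of genes. The medians run from 0.370 TPM under 500 bp to 156 TPM at 6000 bp or more, and the red bins hold regions whose median is 3 kb or more, whether or not all 5 libraries pass.

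The spread around this pattern was large. The 5 highest coding genes alone at their domain were Gnai2, a G protein subunit (7830 TPM over 6 libraries), Stt3b of the oligosaccharyltransferase (5405 TPM), Setd2, the H3K36 methyltransferase (4639 TPM), the actin regulator Coro1a (4560 TPM) and Fam105b (4497 TPM), also known as Otulin. Whether these 5 listed values are true levels was not tested, and Ptprc stood at 259 to 352 TPM in the same libraries. At the other end, 21 of 573 genes alone at a domain had a mean under 1 TPM. Eno1 and Lrch4 are listed at 0 in all 6 libraries, and a listed 0 need not mean no transcript, as Eno1 is a glycolytic enzyme used by nearly every cell. The homeobox genes Lhx1 and Lhx9 and the neural factor Neurog2 stood at 0.0048, 0.015 and 0.027 TPM. The Lhx1 domain was nonetheless 3966 to 4176 bp wide in all 5 libraries. The other 16 of the 21, from which examples were picked after their values were seen, included further developmental regulators, Dlx1 (0.034 TPM), Hmx2 (0.15 TPM) and Tfap2a (0.14 TPM), and the cyclin Ccnd1 (0.86 TPM).

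The median CpG number of promoter windows was the same at broad domains and narrow regions, while the share of CpG-poor windows differed. The 300-base windows of 660 genes (834 windows) at broad domains had a median of 21 CpG, as did 8478 windows at narrow regions, beside 14 over all 20085 autosomal coding windows. Windows with 5 or fewer CpG were more common at broad domains (11.2%, 93 windows) than at narrow regions (4.52%), and made up 31.4% of all windows. By each gene's most CpG-rich window, 63 genes had 5 or fewer CpG. Their domains had a median of 4961 bp and their transcripts a median of 89.7 TPM (60 genes), beside 4071 bp and 54.9 TPM (370 genes) for the 377 genes with over 20 CpG. The 220 genes with 6 to 20 CpG had the lowest values, 3988.5 bp and 48.0 TPM (214 genes), so neither measure followed CpG number in order. H2-Eb1 and Marchf1, a ubiquitin ligase that controls MHC class II, had 0 CpG. Of the 6 motifs searched on both strands, CCGGAAG, the core bound by ETS factors such as GABPA, was in 11.6% of broad windows, 22.3% of narrow ones and 11.9% of all. TATAAA was in 9.23%, 5.90% and 12.7%, and GAGGAAG, the core bound by PU.1 and Spi-B, in 16.4%, 12.4% and 13.2%. GGGCGG, the GC box, was in 65.0%, 66.3% and 47.0%. CCAAT (38.6%, 38.9% and 38.1%) and CACGTG (9.59%, 10.6% and 7.89%) differed less. CCGGAAG and GAGGAAG share their last 5 letters, and a match is only a match of letters.

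DNA methylation was low inside the domains. Enhanced reduced representation bisulfite sequencing (ERRBS) reads CpG-dense parts of the genome, and 706 domains (86.2%) had at least 3 cytosines covered by 10 or more calls in all 6 libraries, with a median of 71 cytosines. Over these domains the vector libraries had medians of 0.404%, 0.473% and 0.478% and the SHMT2 libraries of 0.430%, 0.378% and 0.390%, beside 0.442% to 0.523% in narrow regions. In 467 domains the mean level was under 1%, and in 49 it was 10% or more. Cytosines at least 1 kb inside the edge averaged 1.07% to 1.21% per library, those in the outermost 500 bp 6.74% to 8.06%, those in the first 1 kb outside 25.5% to 27.8%, and those 1 to 5 kb outside 71.2% to 74.7%. These 4 ranges do not overlap. Between the first pair, from 1 kb to 500 bp inside the edge, the mean was 1.06% to 1.35%, about that of the interior. The climb in the mean thus lay in the outermost 500 bp and beyond. The median over cytosines was still 0% in all 6 libraries in the outermost 500 bp (339 domains) and in the first 1 kb outside (195 domains). The means of these zones thus do not describe a typical cytosine or every domain. At 1 to 5 kb outside (385 domains) the median was 86.7% to 89.4%.

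H3K4me1, the mark of enhancers and promoter flanks, had the opposite shape outside the domains. Its peaks covered 78.5% and 71.6% of the outermost 500 bp in vector and 90.5% and 89.0% in SHMT2, and 55.8% and 49.8% against 65.9% and 65.9% of the bases further than 1 kb inside. In the first 1 kb outside they covered 59.6% and 55.0% against 71.9% and 71.7%, beside 31.5% and 27.4% against 44.7% and 45.5% next to narrow regions. Cover was higher next to broad domains than next to narrow regions in all 4 libraries. The difference between groups was of like sign at both kinds of region, and the H3K4me1 lists were longer in SHMT2 (48993 and 52056 peaks) than in vector (37274 and 33119). Its link to peak number was not tested.

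**Figure D4:**
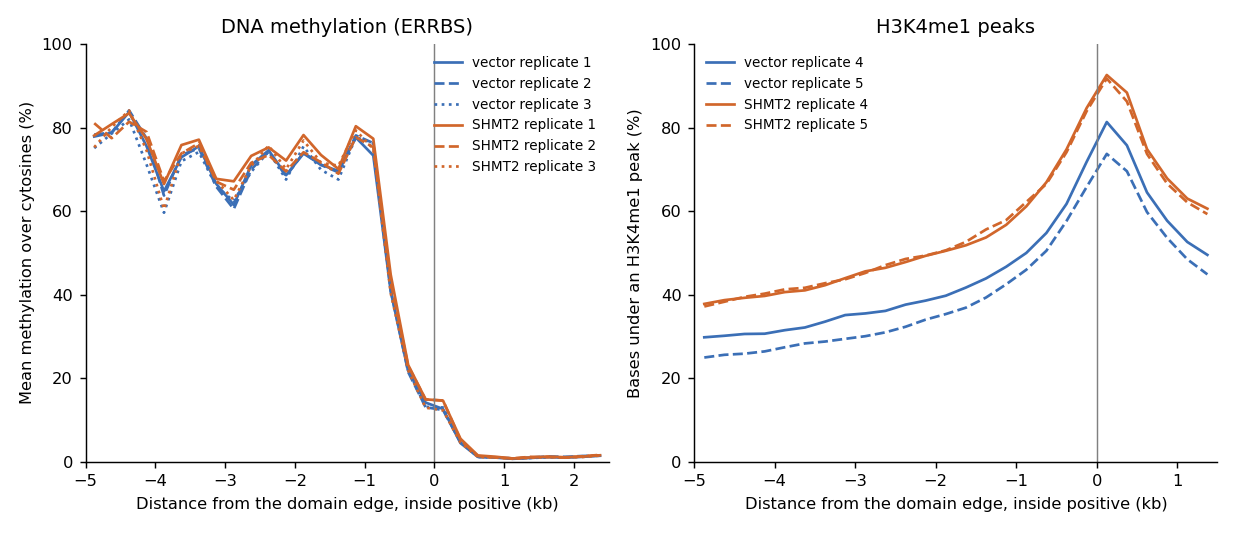
Left, mean methylation (percent) over cytosines with 10 or more calls in all 6 ERRBS libraries, and right, percent of bases under an H3K4me1 peak in 4 libraries, both by distance in kb from the edge of the broad domains with positive values inside, blue for vector and orange for SHMT2. Methylation lies at 71.2% to 74.7% on average 1 to 5 kb outside and at 1.07% to 1.21% more than 1 kb inside, while H3K4me1 cover peaks at the edge, where the SHMT2 lines lie above the vector lines.

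The methylated exceptions rested on few cytosines. Domains at 10% or more had a median of 11 covered cytosines, beside 76 for those under 1%, and 16 of the 49 held no coding gene. The highest mean was in a domain inside Tcf4, an E protein gene, with 71.9%, 84.6% and 72.6% in vector and 91.4%, 20.7% and 70.5% in SHMT2 over 3 cytosines. Cmah, which makes N-glycolylneuraminic acid, followed with 71.2%, 72.6% and 56.4% against 75.5%, 47.8% and 68.8% over 9 cytosines. A domain inside Camk2b averaged 63.2% over 24 cytosines, Ccnd3, the D-type cyclin of germinal centre B cells, 62.9% over 4, and a domain inside Kdm2b 58.1% over 9. SHMT2 replicate 2 was the lowest library in these 5 domains. The covered cytosines lay a median of 2775, 380, 1638, 337.5 and 368 bp from the edge in these 5, in the order named. By level, that distance was 1357 bp in domains at 10% or more and 1305 bp in those under 1%. Of the printed windows only those of Bcl11a and Pax5 were covered, the first at 0.00% to 0.88% over 15 cytosines. The Pax5 window had 1.23%, 3.80% and 0.78% in vector and 0.00% in each SHMT2 library over 5 cytosines. With 189, 215 and 150 calls, these zeros allow levels of up to 1.59%, 1.40% and 2.0%. The whole Pax5 domain had 1.41%, 2.03% and 2.26% against 1.71%, 5.35% and 1.98%, and the groups overlapped.

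Between SHMT2 and vector no broad domain passed the test of methylation. The test was a binomial regression with moderated overdispersion on all H3K4me3 regions with a pooled level of 1% to 99%, 6071 in all and 237 of them broad domains, adjusted by Benjamini-Hochberg. It called 0 broad domains at an adjusted p under 0.05 with a difference of at least 10 points, against a background of 0% of regions. At an unadjusted p under 0.05 there were 10 domains (4.22%, background 4%), 7 higher and 3 lower in SHMT2. All SHMT2 libraries lay above all vector libraries in 8 of the 237 (background 5.42%) and below in 13 (background 3.44%). The smallest adjusted p of the binomial model in a broad domain was 0.856, and 7 domains differed by 10 points or more. Fisher's exact test on calls pooled within a group, which ignores the spread between libraries, called 7 (background 7.13%).

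Of the higher domains by smallest p, the first lay over the 5′ end of the Prdm1 span (chr10:44526709-44530385), Prdm1 being the factor that drives plasma cell formation. The vector libraries had 17.4%, 11.7% and 7.30% and the SHMT2 libraries 21.2%, 20.7% and 26.1% over 16 cytosines, a pooled difference of 10.8 points (binomial model, adjusted p = 0.856). All SHMT2 values lay above all vector values, and by the unweighted mean over cytosines the difference was 5.88 points. The other Prdm1 domain, at its listed start, stood at 24.7% to 29.7% in vector and 26.5% to 35.9% in SHMT2. Foxo3, a forkhead factor of the quiescence programme, had 0.969%, 1.20% and 1.19% against 2.76%, 3.58% and 1.54% over 192 cytosines. A domain in the spans of Lmo2 and Gm38515 had 4.93%, 3.75% and 5.41% against 14.2%, 13.2% and 5.55%, a pooled difference of 6.27 points and an unweighted one of 3.82. The lower domains were the 5S cluster, with 51.4%, 52.3% and 54.4% against 45.8%, 42.5% and 40.9%, one at H2-T10, with 24.4%, 15.5% and 0.00% against 3.11%, 1.86% and 3.65%, and one on chromosome 2 outside any gene (chr2:170218335-170223348), with 7.44%, 7.53% and 8.48% against 4.49%, 3.77% and 4.07%. The groups overlapped at H2-T10, where vector replicate 3 had no methylated call, and not at the other 5. The pooled difference at H2-T10 was −12.5 points, and −6.61 without vector replicate 1. That of the chromosome 2 domain was −3.60 points, −1.64 at a coverage minimum of 20 and −6.45 as an unweighted mean. Each of these 6 had an adjusted p of 0.856 in the binomial model.

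Transcripts of the member genes were compared between SHMT2 and vector with limma on log2(TPM + 1), a scale that understates the change of low genes. Of 842 genes with a value, 766 had a mean of at least 1 TPM and were tested. No gene passed an adjusted p under 0.05 (Benjamini-Hochberg over 11117 genes, background 0%), and the smallest adjusted p from limma was 0.204. At an unadjusted p under 0.05 there were 134 genes (17.5%, background 16.7%), 83 of them higher (background 11.3%) and 51 lower in SHMT2 (background 5.4%). The groups did not overlap in 118 higher (background 16.9%) and 62 lower genes (background 8.26%). The members' median log2 fold change was 0.01, beside 0.02 over all tested genes. These shares are near the background. Shmt2 itself, which had no broad domain, stood at 174, 223 and 157 TPM in the vector libraries against 244, 345 and 259 TPM in the SHMT2 ones.

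The vector libraries differed in other cell types. The summed TPM of 17 erythroid markers was 165, 5714 and 1140 in vector replicates 1, 2 and 3 and 277, 163 and 282 in SHMT2, with 2 genes at 0 in every library. That of 22 myeloid markers was 224, 1216 and 1123 against 458, 344 and 306, with 0 genes at 0. That of 10 B cell markers was 9047, 7169 and 6489 against 9080, 8925 and 8840. Of the 15 erythroid and 20 myeloid markers tested, 15 and 19 had lower means in SHMT2. In bulk cells, fewer cells of a type and less RNA per cell cannot be told apart. Without vector replicate 1, the vector library with little erythroid and myeloid RNA, 83 of 764 member genes passed an adjusted p under 0.05 in limma (10.9%, background 7.63%), 49 higher (background 3.87%) and 34 lower (background 3.76%). With all libraries and no filter on low values, 0 members passed (background 0.0513%). The fit without vector replicate 1 keeps 2 vector libraries, both with high erythroid or myeloid sums, and the part of those cells in the 83 calls was not tested.

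The 5 higher genes with the smallest p were Cyba, Xpo1, BC035044, Bzw2 and Cotl1. Cyba, a subunit of the NADPH oxidase, stood at 55.6, 58.4 and 53.4 TPM in the vector libraries against 77.2, 79.6 and 79.7 TPM in the SHMT2 ones (log2 fold change 0.49, SE 0.074, limma adjusted p = 0.204). Xpo1, the nuclear export receptor, stood at 245, 208 and 224 TPM against 335, 326 and 336 TPM (0.56, SE 0.086). Cotl1, an actin-binding protein, stood at 358, 344 and 268 TPM against 541, 533 and 533 TPM (0.74, SE 0.12). BC035044 and the translation regulator Bzw2 had log2 fold changes of 0.69 and 0.58. In all 5 every SHMT2 library lay above every vector library, and none passed the adjusted threshold.

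The 5 lower genes with the smallest p were Cmah, Tnfaip3, Elk4, Tnrc6b and Rbbp6. Tnfaip3 stood at 592, 755 and 997 TPM in the vector libraries against 413, 288 and 373 TPM in the SHMT2 ones (log2 fold change −1.11, SE 0.23, limma adjusted p = 0.204). Cmah, whose methylated domain is given above, stood at 56.2, 53.6 and 57.4 TPM against 41.3, 38.4 and 36.2 TPM (−0.52, SE 0.084). Elk4, an ETS factor that partners serum response factor, Tnrc6b, a scaffold of microRNA silencing, and Rbbp6, a ubiquitin ligase, had log2 fold changes of −0.62, −0.47 and −0.38. In all 5 every SHMT2 library lay below every vector library. By an exact two-sided permutation test each of these 10 genes had p = 0.1, the lowest value open to groups of 3. The genes were picked by limma p on these same libraries, so this value adds no support. Each passed without vector replicate 1 (limma adjusted p 0.0262 to 0.0448). None passed with any other library left out (limma adjusted p 0.231 to 0.651) or with the replicate block (limma adjusted p 0.464).

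**Figure D5:**
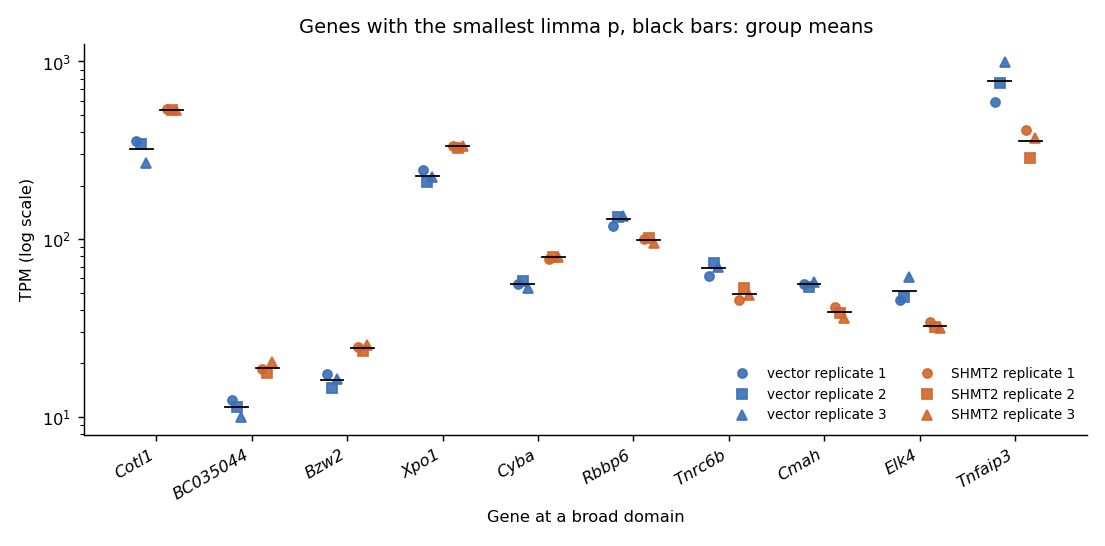
Points give the TPM (log axis) of each RNA-seq library, blue for vector and orange for SHMT2, at the 10 genes at broad domains with the smallest limma p, ordered by fold change, and black bars are group means of 3 libraries. The groups do not overlap at any of the 10, with Tnfaip3 at 592 to 997 TPM in vector and 288 to 413 TPM in SHMT2.

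The members of the lists on presentation, immediate early genes and the BCL2 family named next were picked after their values were seen. By list, 1 of the 21 B lineage factors had an unadjusted p under 0.05 (background 16.7%), and none an adjusted one. This was Klf2, a factor of quiescence and trafficking, at 213, 310 and 187 TPM in the vector libraries against 182, 108 and 146 TPM in the SHMT2 ones (log2 fold change −0.70, limma adjusted p = 0.260). Pax5 stood at 249, 246 and 203 TPM against 260, 249 and 229 TPM, and Irf8 at 1340, 930 and 870 TPM against 1264, 1369 and 1491 TPM. Both overlapped. Of 19 surface molecules, 15 had a positive log2 fold change, beside 5918 of 11117 tested genes, and the median was 0.22, beside 0.02. An unadjusted p under 0.05 was reached by 5 higher ones (background 11.3%). These were Cd79a, Cd79b, Ms4a1, Fcrla and Cd40. Cd79a stood at 655, 522 and 631 TPM against 737, 774 and 770 TPM (0.34, limma adjusted p = 0.222). Cxcr4, a chemokine receptor, was the 1 lower surface gene (background 5.4%), at 319, 336 and 425 TPM against 186, 247 and 274 TPM. All 11 presentation genes had a positive log2 fold change (5918 of 11117 over all tested genes), with a median of 0.26, and 4 of them, B2m, Psmb8, Psmb9 and H2-D1, an unadjusted p under 0.05 (background 11.3%). H2-D1 shares sequence with other class I genes, so its value is uncertain. The vector libraries with lower B cell marker sums (replicates 2 and 3) were also the lower ones at Cd79b and Psmb8, and the part of cell mixture in these differences was not tested.

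Of 17 genes with a value on the list named tumour suppressors, 4 were lower (background 5.4%) and 2 higher (background 11.3%) at an unadjusted p under 0.05. Not every member is a tumour suppressor, Bcl6 and Ccnd3 among them. Sesn1, an inhibitor of mTORC1, stood at 110, 282 and 314 TPM in the vector libraries against 86.5, 66.6 and 74.7 TPM in the SHMT2 ones (log2 fold change −1.49, limma adjusted p = 0.206). It lies at 2 broad domains, 1 shared with Cep57l1 and methylated at 0.0795% to 0.407%. Vector replicate 1 was nearest the SHMT2 libraries, and without it the log2 fold change was −1.97 (limma adjusted p = 0.0161). Prdm1 stood at 86.9, 85.5 and 100 TPM against 46.2, 75.4 and 62.6 TPM (−0.58, limma adjusted p = 0.227). Btg2 was the other lower one beside Tnfaip3, and B2m and Rhoa were the higher ones. Irf8, Btg1, Bcl6, Ccnd3, Gna13, Klhl6, Nfkbie, Trp53, Cdkn1b, Ep300 and S1pr2 had p-values over the unadjusted threshold. The Tnfaip3 domain was unmethylated in both groups, at 0.147% to 0.238% in vector and 0.172% to 0.232% in SHMT2 over 46 cytosines. Among immediate early genes 4 of 15 had a positive log2 fold change, beside 5918 of 11117 tested genes, and the median was −0.21. Zfp36l2, an mRNA decay factor of that list, stood at 303, 929 and 1301 TPM against 223, 210 and 263 TPM (−1.63, limma adjusted p = 0.228). Of 6 BCL2 family genes, the pro-apoptotic Bcl2l11 and Bmf were lower at an unadjusted p under 0.05 (background 5.4%), with log2 fold changes of −0.92 and −0.98. The symbol Bcl2 stood at 181, 264 and 243 TPM against 226, 220 and 178 TPM. Whether these values include transcripts of the transgene or only those of the mouse's own gene was not tested.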

How the data were processed

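RNA-seq, H3K4me3 and H3K4me1 ChIP-seq and ERRBS files were used as the authors deposited them, without the inputs, which are not analysed here. Per the submitters' processing notes STAR, BWA, MACS2, Bismark and Bowtie2 were used on mm10, with no role or order stated. The deposited RNA table holds TPM for 23382 symbols. The deposited peak lists give a fold enrichment ratio and a −log10 q per peak. The deposited methylation files give the percent methylated and the count of calls (coverage) for each cytosine, and the lowest coverage in each file is 10. The 6 ERRBS files hold 1330340 to 1424115 cytosines each, with 63.0 to 71.6 calls per cytosine on average.

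Joined peaks were overlaid across libraries. Log2(TPM + 1) values were tested, for genes averaging 1 TPM or more, with limma 3.58.1 (R 4.3.3), with all 6 libraries and no block. Regions with at least 3 cytosines covered in all 6 libraries were tested by binomial regression whose overdispersion was moderated with limma along a trend on the number of calls. Both were tested on simulated data, and the trend was added after that test, which recovered little without it. Intervals and limits from a count of 0 (3 counts) cover counting error only. Gene starts and sequences are RefSeq's (GRCm38.p6), and of 800 coding genes 777 had a TPM row, 66 of them by an older symbol. No genome was used.

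The domains, gene lists and tests were chosen with earlier results of these data known. The text names the genes at the 12 widest domains, 3 on each side of the width threshold, the members of 5 lists (B lineage factors, surface molecules, NF-kB, tumour suppressors, H3K4 enzymes), the 5 higher and 5 lower genes and the 3 higher and 3 lower domains by p, the 5 most methylated domains, the 5 largest width ratios, and the 5 highest and 5 lowest TPM. Other names are marked as chosen after their values were seen, which also holds for Ptprc, Shmt2, Marchf1, Runx3 and Mef2d. Alternatives covered peak joining, width, peak threshold, pseudocount, filters, coverage, the replicate block, Fisher's exact test and leaving out each library.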

Additional observations from a re-analysis of the deposited data

How the results depend on the processing

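The number of broad domains was 210 with no joining of peaks, 2675 at a width of 2 kb and 333 at 4 kb, and 826 to 929 when 1 H3K4me3 library was left out, the most without vector replicate 4. Genes at broad domains passing the adjusted threshold of limma numbered 0, and 0 to 83 when 1 RNA library was left out, the 83 without vector replicate 1. The 10 named genes passed in that fit and in none of the others. Fisher's exact test on pooled calls called 7 domains for methylation, and the other alternatives and left-out libraries 0, as in the main test. Over protein-coding genes alone at their region the median level was 75.1 TPM at broad domains and 13.1 TPM at narrow regions, beside 48.7 and 11.8 TPM over all genes. None of the results recomputed under an alternative changed direction, namely the counts above, the medians of TPM, the methylation by zone and the 10 genes and 6 domains named by p. Width order, list shares, H3K4me1 cover, motifs and CpG classes were not recomputed.

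Same-numbered libraries of the 2 groups did not deviate together (correlations of −0.42, −0.33 and −0.06 for RNA), so the numbers were not taken as pairs. With the replicate block, 0 genes and 0 domains passed, and at an unadjusted p under 0.05 there were 99 genes (134 without the block) and 3 domains (10 without). The unadjusted count of genes was 278 without vector replicate 1, 79 without SHMT2 replicate 2, and 64 when SHMT2 replicate 3 was left out. That of domains was 4 to 22 with 1 ERRBS library left out. With 3 libraries against 3 no exact permutation test can go below 0.1, the RNA depth is unknown, and domains with few covered cytosines limit the methylation values.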
